A study of Mus musculus with 12 samples.

Results

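The vitamin K dependent genes described here are Bglap2, Mgp and Gas6, which encode secreted proteins carrying γ-carboxyglutamate (Gla), and Ggcx and Vkorc1, which encode enzymes that make and sustain this modification. They were taken from the table by gene symbol from a list of 6 names, of which 5 matched a row of the 39032 rows in all. Bglap3, the remaining name, was not analysed here. All 5 passed the filter of at least 1 FPKM (fragments scaled by transcript length and by the mapped total of the library) in at least 3 libraries, as did 11548 genes in all. Bglap2 (MGP_C57BL6NJ_G0027813) lies on chromosome 3, Mgp (MGP_C57BL6NJ_G0031874) and Ggcx (MGP_C57BL6NJ_G0031315) on chromosome 6, Vkorc1 (MGP_C57BL6NJ_G0033555) on chromosome 7 and Gas6 (MGP_C57BL6NJ_G0033875) on chromosome 8.

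γ-Glutamyl carboxylase, the product of Ggcx, adds a carboxyl group to glutamate residues of its substrates in the endoplasmic reticulum and oxidises reduced vitamin K to its epoxide while doing so. Vitamin K epoxide reductase, the product of Vkorc1, returns the epoxide to the reduced form and is the target of warfarin. Gla residues bind calcium: in bone, osteocalcin (the product of the Bglap genes) is secreted by mature osteoblasts and binds mineral, matrix Gla protein (Mgp) inhibits calcification of cartilage and arteries, and Gas6 uses its Gla domain to bind phosphatidylserine while it activates the receptors Tyro3, Axl and Mertk. The libraries measured RNA and hold no measure of carboxylation.

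The cells were MC3T3-E1 subclone 14, a clonal mouse pre-osteoblast line labelled wild type, and all arms shared an osteogenic medium with ascorbic acid phosphate and β-glycerophosphate for 5 days. The BMP2+RSPO2 arm received recombinant bone morphogenetic protein 2 at 100 ng/ml together with recombinant R-spondin 2, which strengthens Wnt signals at the cell surface, at 200 ng/ml. The BMP2 and RSPO2 arms received either protein alone at the same dose, and the Control arm received vehicle, with 3 independent biological replicates in each of the 4 arms. The study set out to define what each protein and both together do to transcription during osteoblast differentiation.

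Sequencing depth is unknown, because the values are FPKM without counts. In 11 libraries the summed FPKM lay between 322074 and 380507, and in BMP2+RSPO2 replicate 1 it was 635139, with 19.7% of it in RNA polymerase III and related small RNAs. The 10 highest genes held 57.8% of the sum in that library and at most 19.8% in the others. Its median over histone genes was 27.6 FPKM, against at most 1.265 FPKM in the others. The culture expressed markers of its label: all 7 osteoblast markers (Runx2, Sp7, Alpl, Ibsp, Col1a1, Col1a2, Spp1) passed the filter. So did 4 of 6 markers of smooth muscle and 4 of 6 of chondrocytes. Of these, Acta2 had a mean of 1190 FPKM and Tagln of 253 FPKM in Control. Of the markers of the remaining cell types, 2 of 5 of macrophages passed it (with Ptprc and Adgre1 listed at 0), 1 of 6 of adipocytes, none of 4 of hepatocytes and none of 5 of endothelium. In these bulk libraries, fewer cells of a type and less RNA per cell cannot be told apart. Cell cycle genes (6 of 6 tested) were higher in every replicate 1 library, with a median of 20.6 to 46.0 FPKM over the 6 genes, than in replicates 2 and 3, at 6.53 to 17.9 FPKM. Where a result turned on BMP2+RSPO2 replicate 1, its value without that library is also given.

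Promoters from RefSeq (GRCm38.p6, from 250 bases before to 50 after the start of transcription, gene strand) were at hand for 3 of the 5 genes. Those of Gas6, at chr8:13494486-13494785 on the minus strand, and of Ggcx, at chr6:72414058-72414357 on the plus strand, are shown because Gas6 fell in BMP2+RSPO2 under every setting tried, whereas Ggcx had the smallest change of the 5 genes there. Capitals mark the GC box CCGCCC, searched on both strands (as CCGCCC or GGGCGG).
Gas6: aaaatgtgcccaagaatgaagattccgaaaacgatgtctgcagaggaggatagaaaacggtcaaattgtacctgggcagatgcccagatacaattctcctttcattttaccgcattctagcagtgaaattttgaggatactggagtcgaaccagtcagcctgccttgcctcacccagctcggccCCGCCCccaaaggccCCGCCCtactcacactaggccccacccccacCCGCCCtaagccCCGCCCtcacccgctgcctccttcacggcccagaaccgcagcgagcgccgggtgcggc
Ggcx: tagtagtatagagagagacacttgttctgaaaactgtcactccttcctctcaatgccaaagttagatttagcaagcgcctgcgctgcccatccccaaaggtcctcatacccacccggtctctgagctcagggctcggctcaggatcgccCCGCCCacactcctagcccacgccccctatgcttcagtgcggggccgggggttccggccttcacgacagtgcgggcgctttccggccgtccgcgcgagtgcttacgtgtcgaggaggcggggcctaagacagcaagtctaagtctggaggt
The Gas6 promoter held 4 GC boxes and the Ggcx promoter 1, and 35.7% of 32851 promoters of the same length held at least 1, with 5.49% holding 4 or more. Their GC content was 58.3% and 60.3%, against a median of 52.7% over all promoters. The core CTTTG read by TCF and LEF factors of the Wnt pathway (either strand) occurred once in Gas6 and 2 times in Ggcx, and in 53.9% of all promoters. The RUNX core ACCACA (16.8% of all promoters, either strand) and the palindrome GGCGCC bound by SMAD1 and SMAD5 (11.9%) were not found in these windows. These matches describe letters and not bound sites.

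Bglap2, the osteocalcin gene, was high in the arms with BMP2 and low in those without it, apart from 1 library. It was measured at 57.9, 1380 and 1297 FPKM in BMP2+RSPO2 replicates 1 to 3, at 832, 662 and 602 FPKM in BMP2, at 29.3, 63.9 and 14.5 FPKM in RSPO2 and at 68.3, 37.8 and 48.3 FPKM in Control. Every BMP2 library stood above every RSPO2 and Control library. BMP2+RSPO2 replicates 2 and 3 stood above all BMP2 libraries, whereas BMP2+RSPO2 replicate 1 lay within the range of Control. By rank among all genes of a library, Bglap2 was 26 and 29 in BMP2+RSPO2 replicates 2 and 3 and 610 in replicate 1, 60 to 84 in BMP2, 790 to 3365 in RSPO2 and 760 to 1308 in Control.

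**Figure D1:**
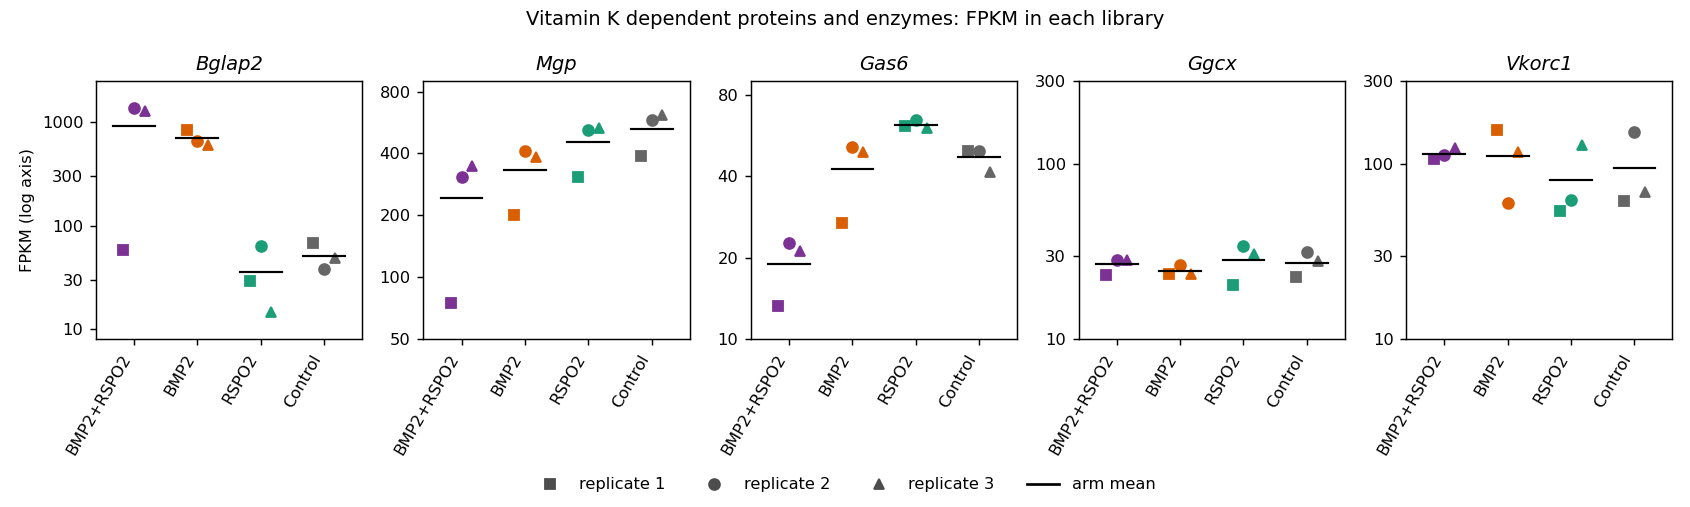
FPKM of the 5 genes in each of the 12 libraries on a log axis with its own range in the first 3 panels, with the arm mean as a line and the marker shape giving the replicate number. Bglap2 stands at 602 FPKM or more in all BMP2 and 2 of 3 BMP2+RSPO2 libraries, Gas6 at 22.6 FPKM or less in every BMP2+RSPO2 library, and Ggcx shows no separation of arms.

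The mean level of Bglap2 was 912 ± 741 FPKM in BMP2+RSPO2, 699 ± 119 in BMP2, 35.9 ± 25.3 in RSPO2 and 51.5 ± 15.5 in Control (SD, n = 3 in each arm here and below). In the order of these means, BMP2+RSPO2 and BMP2 were not told apart, nor were Control and RSPO2. Relative to Control, Bglap2 rose in BMP2+RSPO2 by 3.21 on the log2(FPKM + 1) scale (SE 1.02, limma adjusted p = 0.0439). The difference of BMP2 from Control was larger, at 3.77 (SE 1.02), but had an adjusted p of 0.141, and 0.00374 with only these 2 arms fitted. Without BMP2+RSPO2 replicate 1, the same BMP2 difference had an adjusted p of 0.00182, and the BMP2+RSPO2 difference from Control was 4.71 (adjusted p = 2.79e-04).

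The rise of Bglap2 in BMP2+RSPO2 over Control kept its call on leaving out BMP2+RSPO2 replicate 1 and lost it on leaving out any one of the other 11 libraries (adjusted p 0.0506 to 0.125). Relative to RSPO2, Bglap2 rose by 3.92 in BMP2+RSPO2 (adjusted p = 0.0184) and by 4.47 in BMP2 (adjusted p = 0.0284). The call of BMP2+RSPO2 was lost without RSPO2 replicate 1 or 3 or BMP2+RSPO2 replicate 2 or 3 (0.0519 to 0.0591), and that of BMP2 without RSPO2 replicate 1 or 3 or any BMP2 library (0.0791 to 0.112). RSPO2 differed from Control by -0.71 in Bglap2 (95% confidence interval -2.95 to 1.54, adjusted p = 1.00), with overlapping groups.

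The direction of the osteocalcin transcript's change on adding RSPO2 to BMP2 depended on 1 library, without a call in either direction. With all 12 libraries the change of Bglap2 in BMP2+RSPO2 relative to BMP2 was -0.55 (95% confidence interval -2.80 to 1.69, adjusted p = 0.742), of opposite sign to the difference of the arm means. Without BMP2+RSPO2 replicate 1 the change was 0.95 (adjusted p = 0.258), and within replicates 2 and 3 of all arms it was 1.08 (adjusted p = 0.240). The 2 remaining pairs of libraries with the same number, not taken as paired in the main fit, had ratios of 2.08 and 2.15. Their groups did not overlap, and the share of all genes that did so in replicates 2 and 3 was not counted. With all replicates of both arms it was 33.6% of all genes. None of the fits run called the difference of Bglap2 between BMP2+RSPO2 and BMP2.

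**Figure D2:**
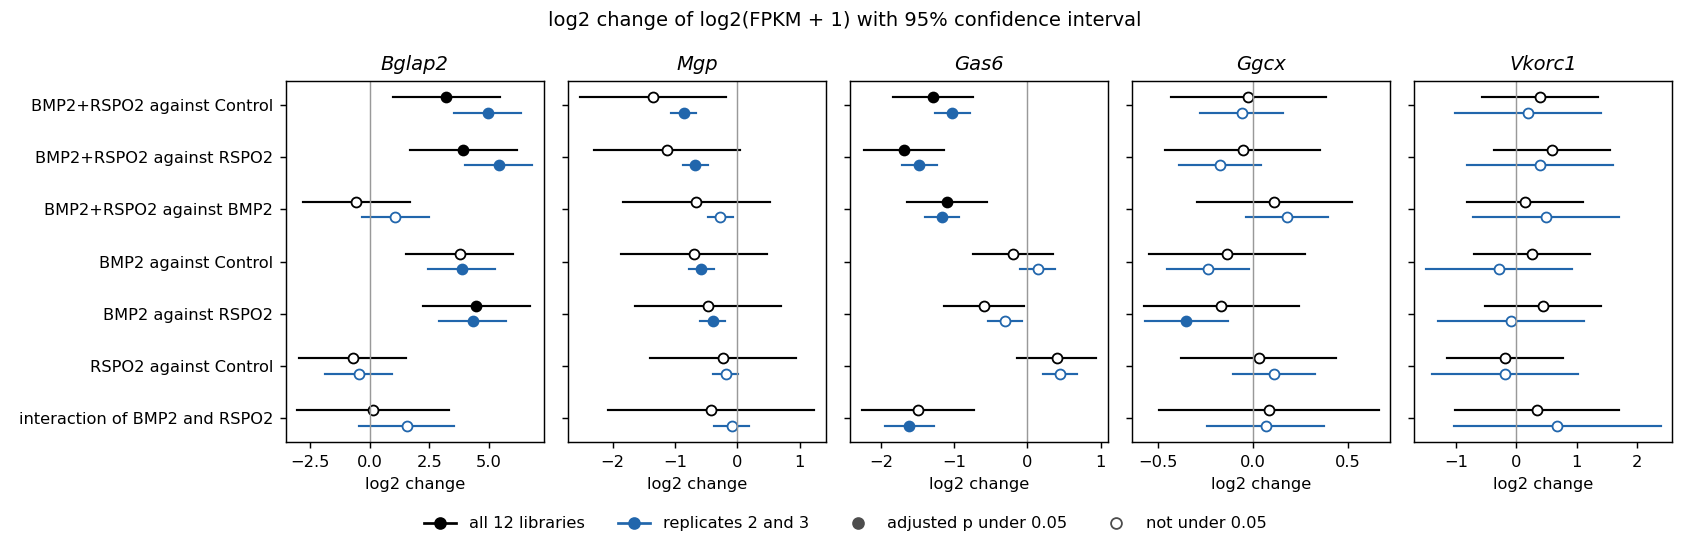
log2 change of each gene in the 7 comparisons, with its 95% confidence interval, in the fit of all 12 libraries (black) and of replicates 2 and 3 alone (blue). Filled points have an adjusted p under 0.05 over all tested genes. Each panel has its own range. Gas6 is filled in all 3 comparisons of BMP2+RSPO2 in both fits, and Vkorc1 in none.

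In BMP2+RSPO2 replicate 1, Bglap2 stood far below the other libraries of its arm while most abundant genes did not. It was at 4.32% of the mean of replicates 2 and 3. The median was 68.0% over the 313 genes with a symbol, predicted genes left out, for which that mean was at least 100 FPKM. Of those 313 genes, 3 were below 10%: Bglap2, Spp1 (osteopontin, a matrix phosphoprotein) at 3.51% and Dmp1 (dentin matrix protein 1, made by late osteoblasts and osteocytes) at 2.92%. These 3 were named after their values were seen. In the other arms Spp1 was also low in replicate 1, at 6.22% in BMP2, 22.7% in RSPO2 and 13.3% in Control, and so was Dmp1, at 2.001%, 1.40% and 0.517%. Bglap2 was not, at 132% in BMP2, 74.6% in RSPO2 and 159% in Control. The 6 other osteoblast markers of the list ranged widely in that library, as a percent of the mean of replicates 2 and 3. Runx2 (the osteoblast master regulator) was at 116%, the collagen genes Col1a1 and Col1a2 at 85.0% and 49.6%, Alpl (alkaline phosphatase) at 69.6%, Ibsp (bone sialoprotein) at 67.3% and Sp7 (osterix) at 55.3%. The part that small RNAs, RNA quality or growth of that culture had in the Bglap2 value was not tested.

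**Figure D3:**
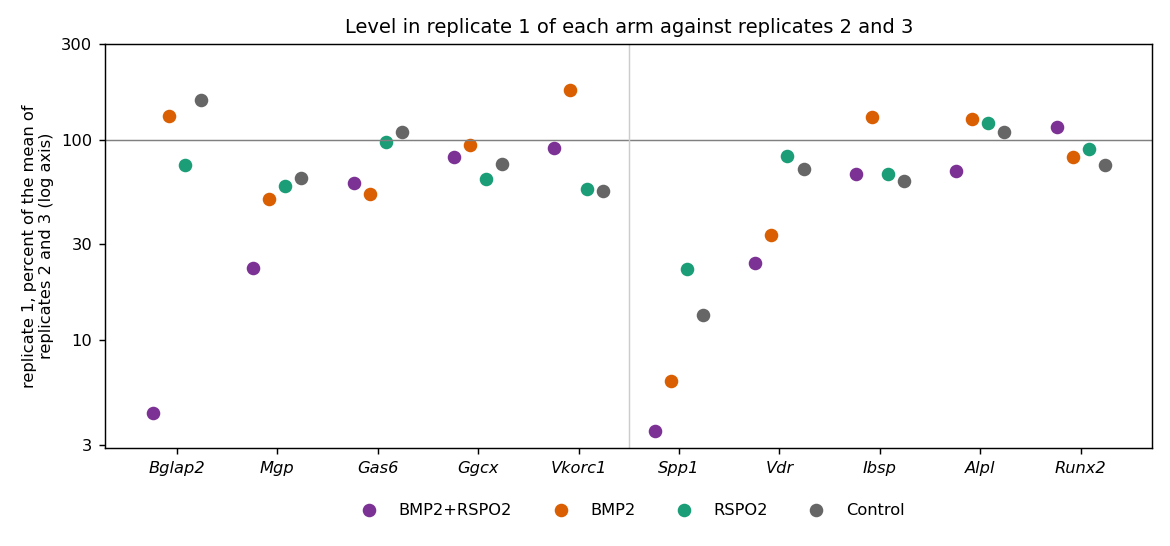
Level in replicate 1 as a percent of the mean of replicates 2 and 3 in each arm, on a log axis, for the 5 vitamin K genes (left) and 5 osteoblast genes (right of the line). Spp1 is low in replicate 1 of all 4 arms, at 22.7% or less, and Bglap2 is that low in BMP2+RSPO2 alone, at 4.32%.

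Several near-identical osteocalcin genes lie side by side in the mouse. The Bglap2 transcript of GENCODE M21 matched that of Bglap at 98.9% of 439 aligned positions and that of Bglap3 at 97.7% of 471. How the authors' counting shared fragments among them is not stated, so the Bglap2 value may include or miss reads of the other copies.

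Mgp, the calcification inhibitor, had its lowest mean in BMP2+RSPO2 and its highest in Control, without a call in the main fit, which had no replicate block. With the replicate block, Mgp in BMP2+RSPO2 was called lower relative to Control and to RSPO2, as given in the last paragraph. It was measured at 74.9, 308 and 350 FPKM in BMP2+RSPO2 replicates 1 to 3, at 202, 412 and 385 FPKM in BMP2, at 309, 521 and 529 FPKM in RSPO2 and at 387, 581 and 616 FPKM in Control. Replicate 1 was the lowest of its arm in every arm, at 22.8% of the mean of the other two in BMP2+RSPO2, 50.6% in BMP2, 58.8% in RSPO2 and 64.7% in Control. All 3 BMP2+RSPO2 libraries lay below all Control libraries. The arm means were 244 ± 148, 333 ± 115, 453 ± 125 and 528 ± 123 FPKM in BMP2+RSPO2, BMP2, RSPO2 and Control.

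Among libraries with the same replicate number the order of Mgp was the same each time. BMP2+RSPO2 stood at 0.194, 0.530 and 0.568 of the Control level in replicates 1, 2 and 3, BMP2 at 0.521, 0.710 and 0.626, and RSPO2 at 0.798, 0.897 and 0.860. In the main fit of all libraries the change of Mgp in BMP2+RSPO2 relative to Control was -1.36 (95% confidence interval -2.53 to -0.19, adjusted p = 0.0866). Without BMP2+RSPO2 replicate 1 it was -0.65 (adjusted p = 0.200), and without BMP2+RSPO2 replicate 3 it was -1.76 and called (adjusted p = 0.0485). Relative to BMP2 the change in BMP2+RSPO2 was -0.66, and 0.047 without BMP2+RSPO2 replicate 1, neither with a call. Relative to Control the change was -0.70 in BMP2 (adjusted p = 0.829) and -0.23 in RSPO2 (adjusted p = 1.00). Within replicates 2 and 3, where the spread was smaller, Mgp fell by 0.86 in BMP2+RSPO2 (adjusted p = 8.07e-04) and by 0.58 in BMP2 (adjusted p = 0.0114), both relative to Control. Neighbouring arms in this order were not told apart by the fit of all libraries.

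Within each library the level of osteocalcin can be set against that of Mgp, since FPKM is per length. The ratio of the Bglap2 level to the Mgp level in FPKM was 0.773, 4.48 and 3.71 in BMP2+RSPO2 replicates 1 to 3 and 4.13, 1.61 and 1.56 in BMP2. It was 0.0947, 0.123 and 0.0275 in RSPO2 and 0.176, 0.0651 and 0.0785 in Control. Every library with BMP2 had a higher ratio than every library without it, BMP2+RSPO2 replicate 1 included. In that library Bglap2 itself lay within the range of Control, at 57.9 FPKM. Its higher ratio came with the lowest Mgp level of all libraries, at 74.9 FPKM.

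Gas6, the ligand of the TAM receptors (Tyro3, Axl and Mertk), fell in cells given both proteins and had no call in cells given either alone. Its level was 13.3, 22.6 and 21.1 FPKM in BMP2+RSPO2 replicates 1 to 3, 26.9, 51.3 and 49.2 FPKM in BMP2, 61.1, 64.9 and 60.5 FPKM in RSPO2 and 49.7, 49.8 and 41.7 FPKM in Control. BMP2+RSPO2 overlapped no other arm, RSPO2 lay above all other arms, and BMP2 had 2 libraries near the top of the Control range and replicate 1 below it. The arm means were 19.0 ± 5.00 FPKM in BMP2+RSPO2, 42.5 ± 13.5 in BMP2, 62.2 ± 2.36 in RSPO2 and 47.1 ± 4.67 in Control.

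Gas6 fell by 1.29 in BMP2+RSPO2 relative to Control (SE 0.25, adjusted p = 0.00537) and by 1.69 relative to RSPO2 (SE 0.25, adjusted p = 0.00100). Both calls remained on leaving out each of the 12 libraries in turn, with adjusted p values of up to 0.0228 and 0.00580. Relative to BMP2, Gas6 fell by 1.099 (SE 0.25, adjusted p = 0.0383), with ratios of 0.494, 0.440 and 0.429 in replicates 1, 2 and 3. That call was lost on leaving out any library other than RSPO2 replicate 1 or BMP2 replicate 1 (adjusted p 0.0509 to 0.127), and under each of 3 other scalings (0.0655 to 0.0971).

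Either protein alone left Gas6 without a call. The change was 0.40 in RSPO2 (95% confidence interval -0.15 to 0.94, adjusted p = 1.00) and -0.19 in BMP2 (-0.74 to 0.35, adjusted p = 0.978), both relative to Control. The sign in BMP2 rested on BMP2 replicate 1: without it the change was 0.10. The effect of RSPO2 with BMP2 present minus its effect without BMP2 was -1.497 (SE 0.35, limma adjusted p = 0.121, unadjusted p = 0.00141). The interaction was called without BMP2 replicate 1 (adjusted p = 0.0295) and within replicates 2 and 3, where it was -1.62 (adjusted p = 0.00420).

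Of the 4 tested smooth muscle markers, 3 fell in BMP2+RSPO2 (19.4% of all genes) and 2 in BMP2 (1% of all genes), both relative to Control. Des (desmin) was not among them. Over the list of 6 markers, 4 of which passed the filter, the summed level was 295 to 323 FPKM in BMP2+RSPO2, 703 to 756 in BMP2, 1160 to 1668 in RSPO2 and 1256 to 1555 in Control, while the late markers Myh11 and Cnn1 stayed at 0.11 FPKM or less. Acta2 and Tagln made up nearly all of these sums. Des was at 1.5 to 3.28 FPKM in BMP2+RSPO2, 1.93 to 3.44 in BMP2, 0.67 to 1.96 in RSPO2 and 0.86 to 1.80 in Control, without a call in the fit of all libraries. Within replicates 2 and 3 it was called higher than Control in BMP2+RSPO2 (adjusted p = 0.00592) and in BMP2 (adjusted p = 0.0129). Chondrocyte markers, of which 4 of 6 passed and Acan and Col9a1 were listed at 0, summed to 14.1 to 25.9 FPKM in BMP2+RSPO2, 22.7 to 45.6 in BMP2, 4.05 to 4.72 in RSPO2 and 7.26 to 12.5 in Control. Their part in the levels of Mgp and Gas6 was not tested. Gas6 overlaps Tmem255b, which was at 0.06 FPKM or less in all libraries.

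The enzymes of the cycle stayed within narrow or unordered ranges. Ggcx, the carboxylase, was measured at 23.4, 28.5 and 28.5 FPKM in BMP2+RSPO2 replicates 1 to 3, 23.7, 26.5 and 23.8 FPKM in BMP2, 20.5, 34.0 and 30.6 FPKM in RSPO2 and 22.6, 31.4 and 28.2 FPKM in Control. Each arm overlapped every other over all replicates. Within replicates 2 and 3 alone, Ggcx was called lower in BMP2 than in RSPO2, where 19% of all genes were called. The ratios there were 0.780 and 0.776. Its change in BMP2+RSPO2 relative to Control was -0.02 (95% confidence interval -0.43 to 0.38, adjusted p = 0.931), which does not show equal levels but bounds the change on this scale. The sign was not settled: under the 3 other scalings it was 0.23 to 0.26, all without a call. Ggcx overlaps Mat2a (26.3 to 44.4 FPKM), and whether strand was used in counting is not stated, so reads of both could be mixed.

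Vkorc1, the reductase, varied more between replicates than between arms. It was measured at 108, 113 and 124 FPKM in BMP2+RSPO2 replicates 1 to 3, at 157, 60.4 and 118 FPKM in BMP2, at 54.1, 62.9 and 129 FPKM in RSPO2 and at 61.6, 153.9 and 69.4 FPKM in Control. Taken over all arms, 5 libraries lay between 54.1 and 69.4 FPKM and 7 between 108 and 157 FPKM, with none between, and the BMP2, RSPO2 and Control arms had libraries on both sides. The SD was 8.10 FPKM in BMP2+RSPO2, 48.7 in BMP2, 40.8 in RSPO2 and 51.2 in Control. Its change in BMP2+RSPO2 relative to Control was 0.40 (95% confidence interval -0.57 to 1.36, adjusted p = 0.526). The table gives 3 transcripts for Vkorc1, and the part of transcript assignment in the spread was not tested.

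Counted over comparisons, few of the 5 genes were called in any. Against Control, 2 of 5 were called in BMP2+RSPO2 (Bglap2 higher, Gas6 lower), where 23% of all tested genes were called, 3.65% higher and 19.4% lower. Within replicates 2 and 3 the count there was 3 of 5, with Mgp lower as well, beside 34.6% of all genes. In BMP2 none of 5 was called by limma, against 1.52% of all genes, with 1 at an unadjusted p under 0.05 (Bglap2, 9.93% of all genes) and 2 called within replicates 2 and 3 (Bglap2 and Mgp, 8.34%). In RSPO2 none of 5 was called, against 0.0779% of all genes, with 0 at an unadjusted p under 0.05 (3.62% of all genes). Relative to RSPO2, 2 of 5 were called in BMP2+RSPO2 (26.1% of all genes) and 1 in BMP2 (5.38%). Within replicates 2 and 3, 3 of 5 were called in BMP2+RSPO2 relative to RSPO2, with Mgp lower as well, beside 37.4% of all genes. Relative to BMP2, 1 was called in BMP2+RSPO2 (4.38%). The interaction called none of 5 (0.294% of all genes), with 1 at an unadjusted p under 0.05 (Gas6, 13% of all genes), which was also called within replicates 2 and 3 (9.6%). Groups did not overlap for 2 of 5 between BMP2+RSPO2 and Control (44% of all genes), for 1 of 5 between BMP2 and Control (20.8%) and for 1 of 5 between RSPO2 and Control (9.33%). They did not overlap for 1 of 5 between BMP2+RSPO2 and RSPO2 (42.3%), for 1 between BMP2+RSPO2 and BMP2 (33.6%) and for 2 between BMP2 and RSPO2 (24.9%). All comparisons with the same arm share its libraries.

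Other Gla proteins were represented by 1 gene at a substantial level, Pros1 (protein S, an anticoagulant that is also a ligand of the TAM receptors). Of 13 listed, 3 passed the filter (Pros1, F7 and Prrg2), and the clotting genes F2 and Proc were listed at 0 in all libraries. Pros1 was measured at 9.82, 22.5 and 22.99 FPKM in BMP2+RSPO2, 22.1, 28.9 and 27.9 in BMP2, 37.3, 43.6 and 45.1 in RSPO2 and 32.5, 35.5 and 34.5 in Control. By arm means Pros1 thus had the same order of arms as Gas6, with RSPO2 highest and BMP2+RSPO2 lowest. Within replicates 2 and 3 the order of BMP2 and Control differed. Gas6 had means of 50.3 FPKM in BMP2 and 45.7 in Control there, and Pros1 28.4 and 35.0. Pros1 fell by 0.95 in BMP2+RSPO2 relative to Control (SE 0.26, adjusted p = 0.0256), or by 0.57 without BMP2+RSPO2 replicate 1 (adjusted p = 0.0117), and by 1.23 relative to RSPO2 (adjusted p = 0.00729). The call relative to Control was lost without any one of the Control libraries (up to 0.0695) and under 2 of 3 other scalings (up to 0.122), while the third gave 0.0477. That relative to RSPO2 was kept in all of these fits.

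The receptors of Gas6 were all expressed. Axl was measured at 12.1, 20.3 and 17.5 FPKM in BMP2+RSPO2, 15.4, 24.3 and 24.1 in BMP2, 28.7, 42.9 and 39.4 in RSPO2 and 23.8, 36.1 and 29.3 in Control. Mertk had means of 10.1 ± 1.01, 10.2 ± 0.423, 13.9 ± 0.846 and 12.96 ± 1.35 FPKM in the same order of arms. Of the 3 receptors, 2 fell in BMP2+RSPO2 relative to Control (19.4% of all genes were called lower), Axl by 0.81 (adjusted p = 0.0376) and Mertk by 0.33 (adjusted p = 0.0471). Tyro3 was at 3.65 ± 0.972 FPKM in BMP2+RSPO2 and 4.08 ± 0.433 in Control, without a call. The median change of the 3 was -0.33, beside -0.26 over all tested genes, and neither call remained under the 3 other scalings, which centre the genes near 0. Relative to RSPO2, where 21.8% of all genes were called lower, Axl fell by 1.11 (adjusted p = 0.00871) and Mertk by 0.43 (adjusted p = 0.0155), calls that 1 of 3 other scalings kept for Axl and none for Mertk, and that of Mertk was also lost without RSPO2 replicate 1 (0.0557). Relative to Control, leaving out 1 library ended the Axl call in 5 of 12 fits (Control replicate 2 or 3, RSPO2 replicate 3, BMP2+RSPO2 replicate 1 or 3, up to 0.120). It ended the Mertk call in 11 of 12, all but that without BMP2+RSPO2 replicate 1 (up to 0.158).

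**Figure D4:**
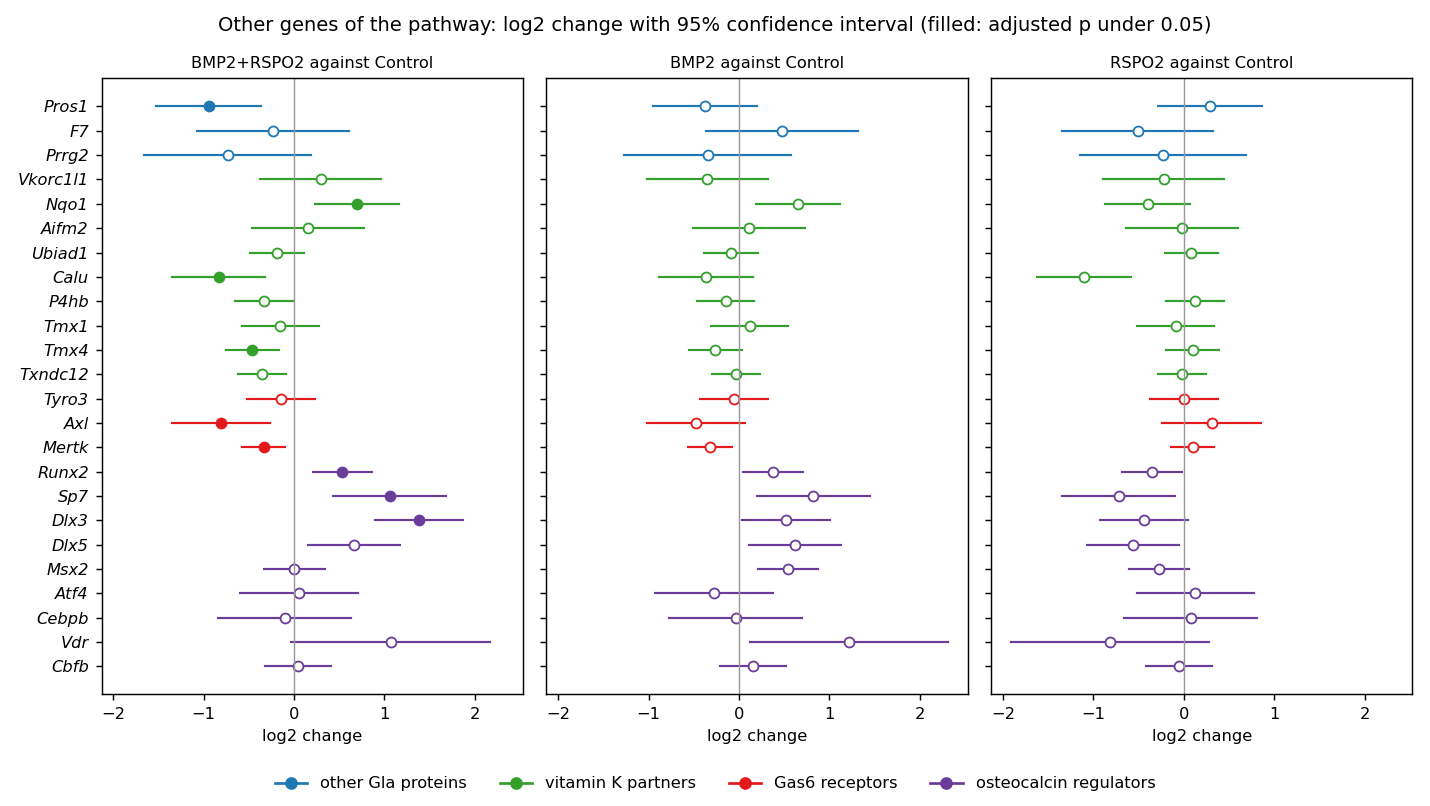
log2 change with 95% confidence interval of the other pathway genes tested in BMP2+RSPO2, BMP2 and RSPO2, each relative to Control, coloured by list. Filled points have an adjusted p under 0.05. In the first panel 4 genes are filled to the right (Nqo1, Runx2, Sp7 and Dlx3) and 5 to the left (Pros1, Calu, Tmx4, Axl and Mertk). The panels of BMP2 and RSPO2 have none.

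Among the partners of the cycle, all 9 of 9 listed were tested, and in BMP2+RSPO2 relative to Control 1 rose and 2 fell, beside 3.65% of all genes called higher and 19.4% called lower. Nqo1, a quinone reductase that can reduce vitamin K, was measured at 15.6, 28.8 and 30.6 FPKM in BMP2+RSPO2, 20.4, 24.8 and 25.2 in BMP2, 11.2, 11.2 and 9.69 in RSPO2 and 14.1, 14.9 and 14.4 in Control. Every library with BMP2 stood above every library without it, by a small margin. BMP2+RSPO2 replicate 1 was at 15.59 FPKM and Control replicate 2 at 14.86 FPKM. The share of all genes separated in this way was not counted. Nqo1 rose by 0.69 in BMP2+RSPO2 relative to Control (SE 0.21, adjusted p = 0.0375) and by 1.096 relative to RSPO2 (adjusted p = 0.00447), and in BMP2 relative to RSPO2 by 1.06 (adjusted p = 0.0142). The first of these was called in 4 of 12 fits that left out 1 library, those without RSPO2 replicate 1 or 3, BMP2 replicate 1 or BMP2+RSPO2 replicate 1 (otherwise up to 0.108), with 0.99 and an adjusted p of 4.49e-04 without BMP2+RSPO2 replicate 1. The second was called in all 12, and the last in 9 of 12 (lost without RSPO2 replicate 3 or BMP2 replicate 2 or 3).

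Calu (calumenin, a calcium-binding protein of the endoplasmic reticulum that inhibits the carboxylase) was measured at 288, 240 and 141 FPKM in BMP2+RSPO2, 301, 340 and 254 in BMP2, 192, 181 and 161 in RSPO2 and 327, 409 and 416 in Control. Its mean was lowest in RSPO2, at 178 ± 16.2 FPKM, and all RSPO2 libraries lay below all BMP2 and Control libraries. Calu fell by 0.83 in BMP2+RSPO2 relative to Control (SE 0.23, adjusted p = 0.0275). In RSPO2 relative to Control its change was larger, at -1.101 (SE 0.23, limma adjusted p = 0.236 over all genes, unadjusted p = 7.45e-04). The BMP2+RSPO2 call was lost without Control replicate 2 or 3 or BMP2+RSPO2 replicate 3 (up to 0.0848) and under the 3 other scalings (adjusted p of up to 0.293). P4hb, a subunit of prolyl hydroxylase and a disulfide isomerase, fell by 0.46 in BMP2+RSPO2 relative to RSPO2 (adjusted p = 0.0393), a call lost under the other scalings and on leaving out any library other than Control replicate 1, BMP2 replicate 1 or BMP2+RSPO2 replicate 3 (up to 0.138). Tmx4, a thioredoxin-like membrane protein, fell by 0.46 relative to Control (adjusted p = 0.0297) and by 0.56 relative to RSPO2 (adjusted p = 0.0119), and both calls were lost under the other scalings (0.0789 to 0.337). The call relative to Control was also lost without any one of the Control libraries or BMP2+RSPO2 replicate 2 or 3 (up to 0.108). Vkorc1l1, the paralogue of Vkorc1, was measured at 12.3, 11.5 and 10.3 FPKM in BMP2+RSPO2 and 10.2, 8.36 and 8.74 FPKM in Control, without a call.

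Several of the 9 listed transcription factors that regulate the osteocalcin genes were higher in the arms with BMP2. Atf4, Cebpb and Cbfb had no call in any comparison of the main fit. In BMP2+RSPO2, 3 of 9 rose relative to Control, beside 3.65% of all genes called higher, and 5 of 9 relative to RSPO2, beside 4.32%. In BMP2, 6 of 9 rose relative to RSPO2, beside 1.91% of all genes called higher. Of these 6, Msx2 passed the filter only through the BMP2 libraries, at 1.56, 1.44 and 2.1 FPKM. Its place in the count was thus partly set by the filter. Msx2 had means of 0.537 FPKM in RSPO2, 0.857 in BMP2+RSPO2 and 0.85 in Control. None of 9 was called by limma in BMP2 relative to Control, with 6, Msx2 among them, at an unadjusted p under 0.05 (9.93% of all genes). In RSPO2 relative to Control none was called either, with 3 at an unadjusted p under 0.05 (3.62% of all genes). These were Sp7 at -0.72, Dlx5 at -0.56 and Runx2 at -0.35, so differences from RSPO2 also take in lower levels in RSPO2. No regulator was called lower in the main fit. Within replicates 2 and 3, 1 was called lower in RSPO2 relative to Control and 1 in BMP2 relative to RSPO2. The median change of the 9 was 0.54 in BMP2+RSPO2 relative to Control, beside -0.26 over all tested genes. Against Control in BMP2+RSPO2, Dlx3 (a homeobox factor) rose by 1.38 (adjusted p = 0.00235), Sp7 (osterix) by 1.06 (adjusted p = 0.0222) and Runx2 by 0.54 (adjusted p = 0.0265). These 3 calls remained under the 3 other scalings, and that of Dlx3 also on leaving out each library. The Runx2 call was lost without Control replicate 1 or BMP2+RSPO2 replicate 1 or 3, and that of Sp7 without Control replicate 1 or BMP2+RSPO2 replicate 2 or 3. Relative to RSPO2, the 5 with the smallest p in BMP2+RSPO2 were Dlx3 (1.82), Sp7 (1.78), Runx2 (0.89), Dlx5 (1.22) and Vdr (1.89), and in BMP2 they were Sp7 (1.55), Msx2 (0.82), Dlx5 (1.19), Runx2 (0.73) and Dlx3 (0.96), all as log2 changes. Of these, the call of Vdr, the vitamin D receptor, in BMP2+RSPO2 was lost without RSPO2 replicate 1 or 2 or BMP2+RSPO2 replicate 2 or 3 (up to 0.0614). In BMP2, that of Dlx3 was lost without RSPO2 replicate 1 or 2 or any BMP2 library (up to 0.119), and that of Runx2 without RSPO2 replicate 1 or 2 or BMP2 replicate 2 or 3 (up to 0.0859), while those of Dlx5 (0.0503) and Msx2 (0.0532) were lost without BMP2 replicate 3. Under 1 of 3 other scalings Runx2 was not called in BMP2 relative to RSPO2 (adjusted p = 0.0599). In BMP2+RSPO2 replicate 1, the library where Bglap2 was lowest for its arm, Vdr was at 4.40 FPKM, against 19.2 and 17.3 FPKM in replicates 2 and 3. It was also low in BMP2 replicate 1, at 6.2 FPKM against 19.0 and 17.9 FPKM, where Bglap2 was the highest of its arm.

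The transcripts most like each of the 5 genes over the 12 libraries were found by Pearson's r of log2(FPKM + 1). All points share the 4 arms and the same libraries, so r is a description. Bglap2 was followed most closely by Cerk (ceramide kinase), St6galnac4 (a sialyltransferase) and Nqo1, each at r = 0.95. Mgp was followed by Aplp2 (r = 0.98), Tcea3 (0.98) and Ift172 (0.97), Gas6 by Coa5 (0.98), Nrep (0.98) and Itga3 (0.97), and Ggcx by Atf5 (0.96), Arhgef2 (0.93) and Aldh18a1 (0.93). Vkorc1 had no partner as close: Tnpo2 reached 0.83, Gpatch4 0.77 and AA467197 0.75.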

How the data were processed

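Poly(A) RNA of 12 libraries was sequenced, per the labels' protocols. The authors deposited 1 FPKM value per gene and library, rounded to 2 decimals. cutadapt 1.10, FastQC 0.10.1, HISAT2 2.0, StringTie 1.3.4 and edgeR (no role or version given) and the builds GRCm38 and mm10 are named, per the submitters' processing notes. The gene identifiers belong to the C57BL/6NJ annotation, so no coordinates were taken from the table. The deposited p-values and q-values name no groups and were not used. FPKM scales to all mapped fragments, so a library rich in small RNAs shifts every other gene, and the depth behind a value is unknown.

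Values were transformed as log2(FPKM + 1). Genes reaching 1 FPKM in 3 or more libraries (11548) entered 1 limma 3.58.1 fit (R 4.3.3) with 4 arms, no block, and a variance trend (8 residual and 2.5 prior degrees of freedom). Tests were two-sided, with Benjamini-Hochberg adjustment over all tested genes within each of 7 comparisons, and a call is an adjusted p under 0.05. Log2 changes of low genes are pulled toward 0 by the pseudocount of 1. The fit was tested on simulated data.

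The 6 names and the 12 gene lists were chosen with earlier results of these data known. One gene of the lists is not reported here. Named are the 5 genes, the called genes of the pathway lists (at most 5 with the smallest p in a list and comparison), and the 3 genes with a symbol most like each gene, predicted genes left out. Sequences came from RefSeq (GRCm38.p6) and GENCODE M21. Alternatives were another pseudocount, no filter, 3 scalings, the replicate block, no variance trend, replicates 2 and 3 alone, and leaving out each library. Comparing only 2 arms was added after seeing the data.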

Additional observations from a re-analysis of the deposited data

Results flagged for a closer look

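Gas6 in the arms with RSPO2 lay on opposite sides of the matching arms without it, depending on BMP2, but the test of that difference was not called. With BMP2 present, every BMP2+RSPO2 library (13.3 to 22.6 FPKM) lay below every BMP2 library (26.9 to 51.3 FPKM), where groups did not overlap for 33.6% of all genes. Without BMP2, every RSPO2 library (60.5 to 64.9 FPKM) lay above every Control library (41.7 to 49.8 FPKM), where they did not overlap for 9.33%; that difference had no call (0.40, adjusted p = 1.00). The interaction of both proteins was -1.497 on the log2(FPKM + 1) scale, with a limma adjusted p of 0.121 and an unadjusted p of 0.00141. Over the 12 fits that left out 1 library the adjusted p ran from 0.0295 to 0.301, and the lowest was reached without BMP2 replicate 1.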

How the results depend on the processing

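The fall of Gas6 in BMP2+RSPO2 relative to Control and to RSPO2 kept its direction and its call under all alternatives run. Every other call of the 5 genes was lost under at least 1. The number of the 5 genes called in BMP2 relative to Control was 0, but 2 within replicates 2 and 3 (Bglap2 and Mgp) and 1 with only the 2 arms fitted (Bglap2). In BMP2+RSPO2 it was 2 relative to Control, but 1 with no filter or only 2 arms, and 2 relative to RSPO2, but 1 with only 2 arms. Both were 3, with Mgp added, within replicates 2 and 3 and with the replicate block (beside 3897 and 4159 of all 11548 genes with the block). Relative to BMP2 it was 1, but 0 with no filter, under quantile normalization, median-of-ratios scaling or protein-coding scaling, and with only 2 arms. In BMP2 relative to RSPO2 it was 1, but 0 with no filter and 3 within replicates 2 and 3 (Bglap2, Mgp and Ggcx, beside 19% of all genes). For the interaction it was 0, but 1 within replicates 2 and 3. Leaving out each library gave 0 to 1 in BMP2 relative to Control, 0 to 0 in RSPO2 relative to Control, 1 to 2 and 1 to 2 in BMP2+RSPO2 relative to Control and RSPO2, 0 to 1 relative to BMP2, 0 to 1 in BMP2 relative to RSPO2 and 0 to 1 for the interaction. The cause of these differences was not tested, except that no filter adds genes to the adjustment. A fit of 2 arms has fewer libraries and takes the spread from those arms alone. For Bglap2 in BMP2 relative to Control the change was 3.77 with or without BMP2+RSPO2 replicate 1. Its SE was 1.02 with that library in the fit and 0.43 without it.

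Some signs turned, none with a call in either fit. Ggcx in BMP2+RSPO2 was at 0.24, 0.23 and 0.26 relative to Control and 0.23, 0.21 and 0.19 relative to RSPO2 under quantile, median-of-ratios and protein-coding scaling. These scalings moved the median of all genes in BMP2+RSPO2 relative to Control to -0.02, -0.04 and -0.02, against -0.26. Within replicates 2 and 3, Vkorc1 in BMP2 was at -0.29 relative to Control and -0.094 relative to RSPO2, Gas6 in BMP2 at 0.14 relative to Control, and Bglap2 in BMP2+RSPO2 at 1.08 relative to BMP2. Leaving out 1 library gave ranges across 0. Relative to Control these were -0.36 to 0.10 for Gas6 and -0.045 to 0.66 for Vkorc1 in BMP2, -0.44 to 0.022 for Mgp, -0.11 to 0.24 for Ggcx and -0.57 to 0.22 for Vkorc1 in RSPO2, and -0.15 to 0.076 for Ggcx in BMP2+RSPO2. In BMP2+RSPO2 relative to BMP2 they were -1.33 to 0.95 for Bglap2, -1.06 to 0.047 for Mgp and -0.24 to 0.44 for Vkorc1, and relative to RSPO2 -0.26 to 0.087 for Ggcx. For the interaction they were -0.62 to 1.66 for Bglap2, -0.82 to 0.28 for Mgp, -0.13 to 0.22 for Ggcx and -0.072 to 0.71 for Vkorc1. Of all genes tested, 2656 were called in BMP2+RSPO2 relative to Control, against 1626 to 1674 under the 3 scalings and 3994 within replicates 2 and 3.

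Same-numbered libraries of different arms deviated together in 16 of 18 pairs at r over 0.1, with replicate 3 at 4 of 6 and the lowest at -0.12. Of the 36 pairs with different numbers, 12 were over 0.1, and their median r was -0.20. The labels state no paired design, and the numbers were not taken to pair the samples in the main fit. Whether a number marks a shared batch was not tested. Of 36 best matches in another arm, 25 had the same number. With the replicate block, Mgp in BMP2+RSPO2 had an adjusted p of 0.00845 relative to Control and 0.0163 relative to RSPO2, and the interaction of Gas6 one of 0.0576. The sum of Bglap2 and Bglap3 was not run, because Bglap3 was not analysed here. Unknown depth leaves values near 0 without a limit.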
